A study of Mus musculus with 8 samples.

Results

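Lysosomes are the acid compartments in which a Kupffer cell, the resident macrophage of the liver sinusoid, breaks down what it has taken up from blood. A proton pump in their membrane, the V-ATPase, acidifies the interior, soluble hydrolases inside it cut glycans, sphingolipids, lipids and proteins, and membrane proteins protect the boundary and carry the products out. The transcription factors TFEB and TFE3 bind E-box sites near the start of many lysosomal genes and raise their transcription when they enter the nucleus. The genes examined were 45 lysosomal genes other than cathepsins, found by symbol in a table of 56691 genes. They comprised 12 glycan and sphingolipid hydrolases or their activators, 6 hydrolases of glycosaminoglycans and sulfate esters, 5 genes of lipid and phospholipid handling, 4 genes of protein turnover, 8 membrane proteins, 8 genes of the proton pump, and Tfeb and Tfe3. Measured values were not used to pick the symbols, but the choice was made with earlier results of these data known. All 45 passed the filter on low counts that left 15870 genes to test.

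The RNA came from Kupffer cells of 4 wild-type (WT) and 4 Vsig4-/- (KO) libraries, sorted by flow cytometry on day 7 after B16F10 melanoma cells had been injected. B16F10 is a pigmented mouse melanoma line, and every liver sampled held its metastases, so the libraries include no tumour-free liver. The gate kept DAPI-negative cells with CD45 and Tim-4, which limits the sample to Kupffer cells that still carry Tim-4. The labels give no age and do not state that each library is a different mouse. The p-values therefore refer to the spread from library to library, part of which may be technical. Vsig4, the gene removed in the KO mice, encodes a macrophage receptor for complement fragments that also restrains T cells.

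Total counts ran from 15264043 to 19513844 per library. The targeted gene went with the labels: counts of Vsig4 were between 22498 and 46735 in WT and between 2 and 9 in KO. All 16 Kupffer cell markers had counts in every library, and their summed level was 22896 to 41417 CPM in WT and 9152 to 28173 CPM in KO, where CPM is the count as a share of the scaled library size. All 10 melanoma markers were also counted in every library, with sums of 486, 416, 5485 and 4707 CPM in libraries WT 1 to WT 4, and of 2437, 3486, 12369 and 6449 CPM in libraries KO 1 to KO 4. The labels name no batch.

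Promoter sequences show which lysosomal genes carry the E-box bound by TFEB and TFE3. RefSeq promoters on GRCm38.p6 (250 bases before to 50 after the start) were matched by symbol for 38 of the 45 genes. The others are Atp6v1b2, Atp6v1h, Plbd2, Galns, Asah1, Npc1 and Atp6v0d2. The 6-letter core CACGTG, which reads the same on both strands, occurred in 12 of the 38 promoters (31.6%) and in 2187 of 27025 promoters of the table (8.09%). The longer form TCACGTGA, which contains the core and is also its own reverse complement, occurred in 5 of the 38 (13.2%) and in 304 of all promoters (1.12%). The 5 were Atp6v0d1, Atp6v1a, Cln3, Gla and Mcoln1, and the core alone was found in Arsa, Gaa, Glb1, Lamp1, Lgmn, Naglu and Sgsh. A match describes these letters only and is not evidence of binding.

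The 6 stretches that follow were chosen to show the core in 3 membrane protein genes, 2 hydrolase genes and 1 gene of the proton pump. Each runs 5′ to 3′ on the strand of its gene, with the core in capitals. In order, they lie at chr8:13159088-13159160 on the plus strand, chr8:3500436-3500491 on the plus strand, chr7:126583340-126583397 on the minus strand, chr12:102439124-102439153 on the minus strand, chr11:101070009-101070038 on the plus strand and chr16:44139373-44139402 on the minus strand, all upstream of the start of transcription in GRCm38.p6.
Lamp1: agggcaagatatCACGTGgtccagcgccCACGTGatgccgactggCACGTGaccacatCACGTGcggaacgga
Mcoln1: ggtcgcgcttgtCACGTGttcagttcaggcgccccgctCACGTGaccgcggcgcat
Cln3: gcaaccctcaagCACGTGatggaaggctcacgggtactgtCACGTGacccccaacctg
Lgmn: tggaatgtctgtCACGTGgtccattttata
Naglu: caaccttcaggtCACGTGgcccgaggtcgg
Atp6v1a: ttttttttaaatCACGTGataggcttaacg
Lamp1, an abundant glycoprotein of the lysosomal membrane, had 4 copies of the core, beginning 61, 45, 28 and 15 bases before the start. The lysosomal cation channel gene Mcoln1 had copies at 71 and 45 bases, the second within TCACGTGA. Cln3, mutated in a childhood neuronal storage disease, had copies at 149 and 121 bases, the second within TCACGTGA. In the promoters of the protease Lgmn, the heparan sulfate hydrolase Naglu and the pump subunit Atp6v1a the core stood once, 49, 73 and 131 bases before the start.

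The 45 genes differed widely in level and together made up 1.19% to 2.29% of all counts. Levels are given as TMM-scaled FPKM, that is CPM divided by exonic length in kilobases, so that they can be compared between genes and between libraries. By their mean over the 8 libraries, 11 genes were at 100 or more, 25 between 10 and 100, 8 between 1 and 10, and 1 below 1. Psap (ENSMUSG00000004207), the precursor of the 4 saposins that present sphingolipids to their hydrolases, alone held 25.1% of the sum. With the asparaginyl endopeptidase Lgmn and with Lamp1 the share was 48.5%, and with the progranulin gene Grn and Laptm4a, a membrane protein of late endosomes, it was 61.4%. Atp6v0d2 (ENSMUSG00000028238), an alternative d subunit of the pump best known from osteoclasts, was the lowest.

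**Figure D1:**
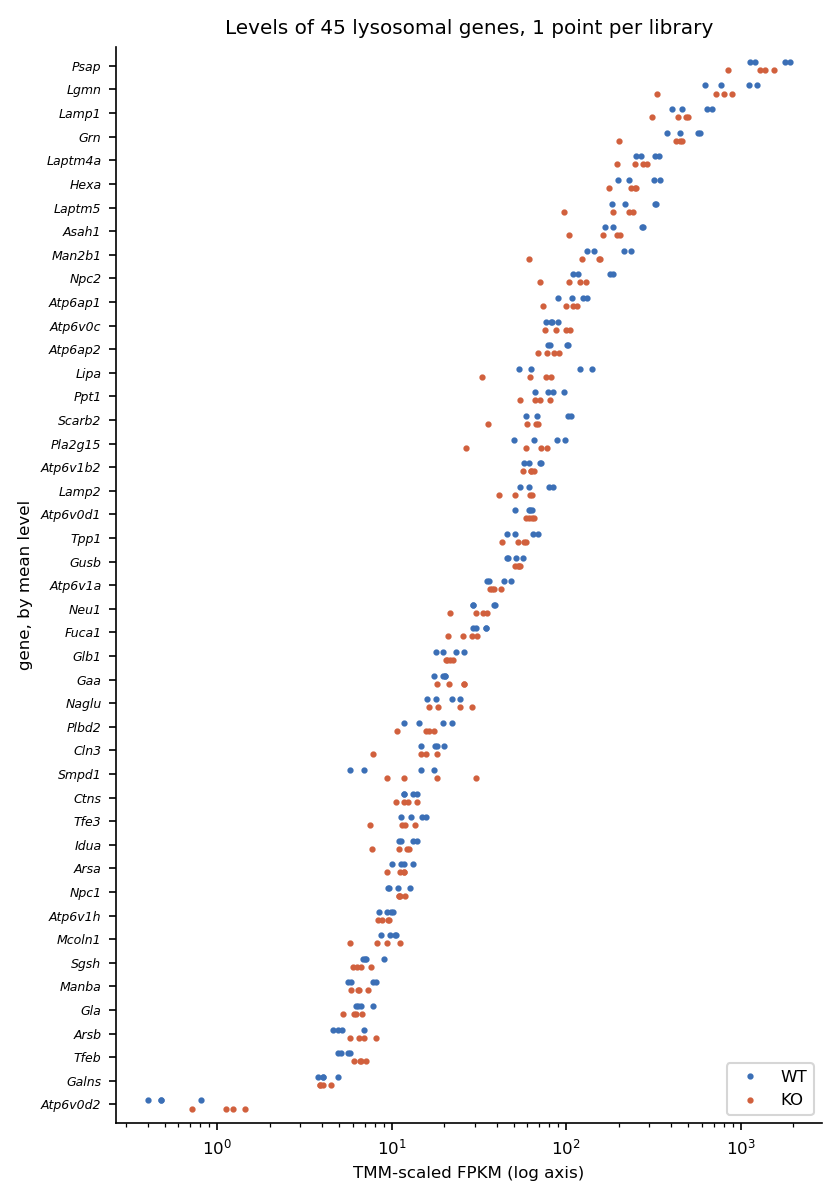
Each point is the level of a lysosomal gene in 1 library (TMM-scaled FPKM, logarithmic axis), with WT in blue and KO in red and the genes ordered by mean level. Psap stood highest and Atp6v0d2 lowest, and for most genes a single KO library, KO 3, was the lowest point.

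Among the glycan and sphingolipid hydrolases and activators, Psap led, with 1793, 1914, 1136 and 1213 TMM-scaled FPKM from WT 1 to WT 4 and 1550, 1385, 842 and 1284 from KO 1 to KO 4. WT 1 and WT 2 were highest, KO 3 was lowest, and the other KO libraries lay among the WT values. Hexa, a subunit of the ganglioside-cleaving β-hexosaminidase, Asah1, the acid ceramidase, and Man2b1, the α-mannosidase, followed with means of 250, 196 and 153 over the 8 libraries. Smpd1 (ENSMUSG00000037049), the acid sphingomyelinase, ran the other way, with 6.91, 5.79, 17.6 and 14.8 from WT 1 to WT 4 and 9.36, 11.8, 30.5 and 18.1 from KO 1 to KO 4. Its lowest values were in WT 1 and WT 2 and its highest in KO 3, and the genotypes overlapped. Fuca1, the α-fucosidase, had 34.8, 34.7, 29.1 and 30.4 in WT and 28.9, 30.8, 20.9 and 25.5 in KO. Its KO values were on the low side but KO 2 lay within the WT range. The other members of the group were Gusb (mean 51.5), Neu1 (32.0), Glb1 (21.6), Gaa (21.1), Manba (6.67) and Gla (6.44). They encode the β-glucuronidase, a sialidase, the β-galactosidase, the glycogen-degrading α-glucosidase, the β-mannosidase and the α-galactosidase.

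The hydrolases of glycosaminoglycans and sulfate esters were all of moderate or low level. Naglu, which removes N-acetylglucosamine from heparan sulfate, was the highest, with 18.0, 15.9, 22.3 and 24.7 in WT and 16.3, 18.4, 28.7 and 24.5 in KO. Here too WT 1, WT 2 and KO 1 were low and KO 3 was high, with overlapping genotypes. Arsb, an arylsulfatase that acts on dermatan sulfate, had 4.62, 5.21, 6.97 and 4.94 in WT and 6.93, 6.50, 8.17 and 5.80 in KO. WT 3 alone overlapped the KO range. The iduronidase Idua, the sulfatide sulfatase Arsa, the heparan sulfate sulfamidase Sgsh and the galactosamine-6-sulfatase Galns had means of 11.6, 11.3, 7.08 and 4.14.

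Of the lipid genes, Lipa (ENSMUSG00000024781), the acid lipase that frees cholesterol and fatty acids from lipoproteins, had 141, 121, 53.5 and 62.8 in WT and 82.3, 76.5, 32.8 and 62.2 in KO. Its range over the 8 libraries was 4.30-fold, and the order of the libraries was close to the reverse of their melanoma sums. Npc2, the soluble cholesterol carrier, had 178, 185, 110 and 117 in WT and 131, 121, 70.8 and 104 in KO. Npc1, its membrane partner in cholesterol export, had 12.7, 10.9, 9.69 and 9.47 in WT and 11.1, 11.9, 11.0 and 11.0 in KO. Npc1 varied little, whereas Npc2 was highest in WT 1 and WT 2 and lowest in KO 3. The lysosomal phospholipase A2 gene Pla2g15 had 98.2, 88.8, 50.3 and 65.3 in WT and 77.9, 71.4, 26.6 and 58.6 in KO. Its lowest library was again KO 3. Plbd2, a phospholipase B-like protein, ranged from 10.7 to 22.3.

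In the group of protein turnover, Lgmn had 1236, 1109, 625 and 767 in WT and 805, 890, 331 and 723 in KO. The value in KO 3 was below every other library, and the rest overlapped. Ppt1, which removes palmitate from proteins, had 78.6, 97.7, 84.1 and 66.6 in WT and 81.0, 70.6, 54.6 and 66.0 in KO. KO 1 and KO 2 lay among the WT values. Grn and the tripeptidyl peptidase gene Tpp1 had means of 440 and 55.3.

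Of the membrane proteins, Lamp1 had 688, 644, 401 and 462 in WT and 489, 499, 310 and 437 in KO. Lamp2, the second major membrane glycoprotein and a receptor in chaperone-mediated autophagy, had 83.7, 79.7, 54.4 and 61.3 in WT and 61.9, 63.4, 41.2 and 51.0 in KO. For both genes WT 1 and WT 2 were the highest libraries and KO 3 the lowest, and the other libraries lay between them. Scarb2 (ENSMUSG00000029426), the receptor that carries glucocerebrosidase to the lysosome, had 107, 103, 58.5 and 68.1 in WT and 68.9, 67.1, 35.5 and 59.2 in KO. Laptm5, a lysosomal protein of blood cells, had 322, 328, 184 and 218 in WT and 241, 230, 97.4 and 185 in KO. Laptm4a, its more widely expressed relative, had 338, 321, 250 and 267 in WT and 277, 291, 196 and 249 in KO. All 3 were highest in WT 1 and WT 2 and lowest in KO 3, and Laptm4a spanned the narrowest range of them. Cln3, the cystine exporter Ctns and Mcoln1 had means of 15.8, 12.4 and 9.24 and were highest in WT 2, KO 2 and KO 1.

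Apart from Atp6v0d2, the genes of the proton pump spanned at most 1.77-fold over the 8 libraries. Atp6ap1, an accessory subunit, was highest with 131, 124, 89.7 and 108 in WT and 115, 110, 74.0 and 99.7 in KO. Atp6ap2, the other accessory subunit, also known as the prorenin receptor, had 103, 101, 78.2 and 80.4 in WT and 85.1, 90.6, 68.5 and 77.6 in KO. The standard d subunit Atp6v0d1 had 63.8, 62.2, 50.6 and 61.6 in WT and 61.1, 65.2, 59.1 and 63.3 in KO. The genotypes overlapped for each of these 3 subunits, and only WT 3 stood apart for Atp6v0d1. Atp6v0c, which forms the proton-carrying ring, and the V1 subunits Atp6v1b2, Atp6v1a and Atp6v1h had means of 87.2, 63.5, 39.8 and 9.27, each with a range of at most 1.40-fold over the 8 libraries. Atp6v0d2 had 31, 23, 21 and 17 counts from WT 1 to WT 4 and 60, 77, 35 and 58 counts from KO 1 to KO 4. On the level scale that was 0.812, 0.476, 0.478 and 0.402 TMM-scaled FPKM in WT and 1.23, 1.45, 0.713 and 1.12 in KO. Only WT 1 and KO 3 overlapped.

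The factor genes differed from each other. Tfeb (ENSMUSG00000023990) had 5.59, 5.09, 4.91 and 5.79 in WT and 6.61, 6.08, 6.63 and 7.16 in KO, so that each KO library was above each WT library. Tfe3 had 15.6, 15.0, 11.3 and 12.8 in WT and 13.5, 11.4, 7.53 and 11.9 in KO, with overlap and with KO 3 lowest. The transcript levels do not show where either protein was in the cell.

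**Figure D2:**
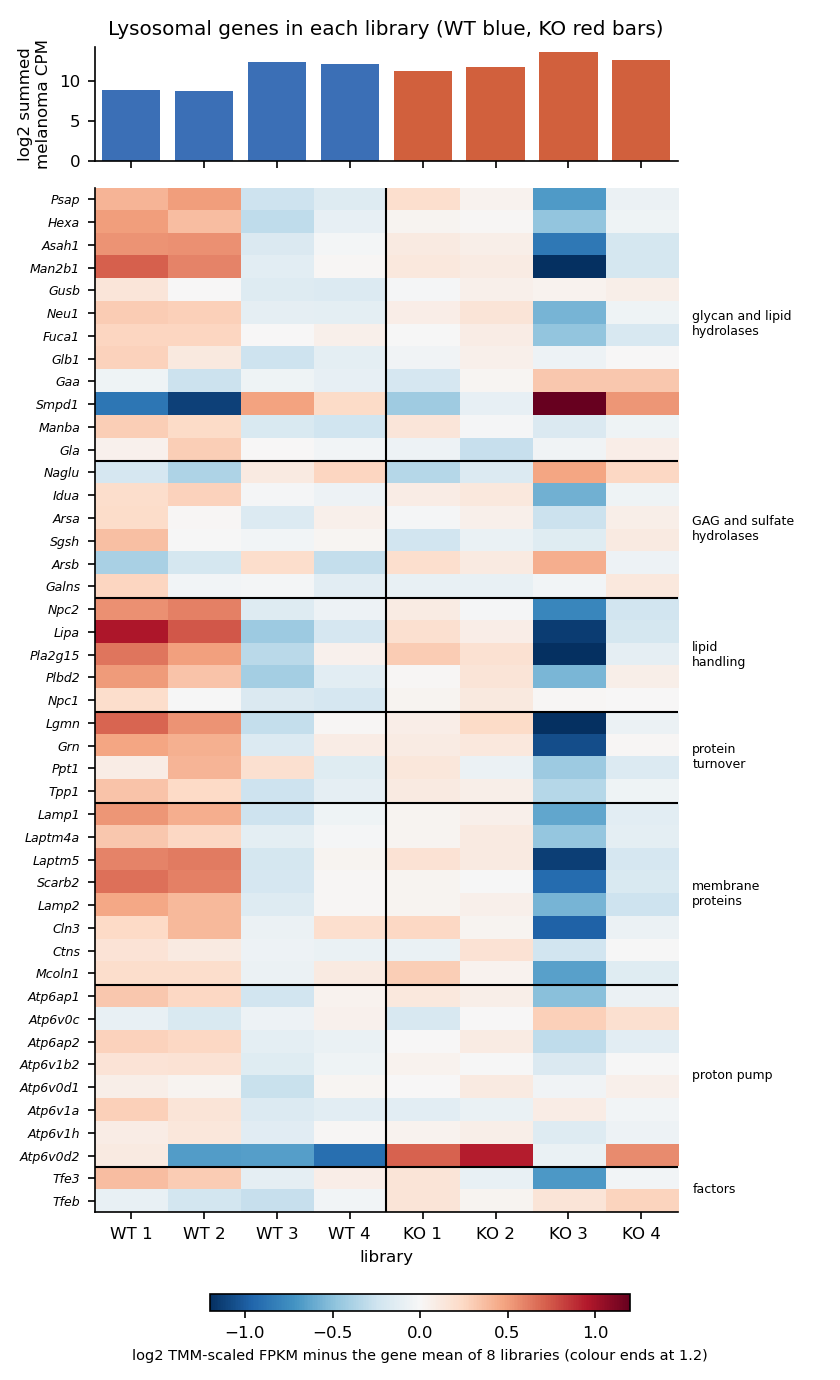
The colour is the log2 level of each of the 45 genes minus its mean over the 8 libraries, with genes grouped by role, and the bars above give the log2 summed CPM of the 10 melanoma markers. WT 1 and WT 2, with the shortest bars, were above the gene mean for most genes, KO 3, with the tallest bar, was the lowest library for 29 of the 45 genes, and Smpd1 and Naglu ran the opposite way.

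KO and WT were compared by edgeR's quasi-likelihood test, the only comparison the design sets, and no lysosomal gene passed without a block on the replicate number, while 7 passed with it, as given further on. With Benjamini-Hochberg adjustment over all genes tested and a threshold of 0.05, 0 of the 45 genes were called, where 0.0063% of the 15870 genes were, namely Vsig4 alone. The smallest adjusted p among the 45 was 0.492, and DESeq2 and limma also called 0 of them. At an unadjusted p under 0.05 there were 2 genes higher in KO, Atp6v0d2 and Tfeb, and 0 lower, where 8.78% of all genes had such a p. The share of the 45 genes is below that background.

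Although no single gene passed, 35 of the 45 had a lower value in KO and the median log2 difference (KO minus WT) was -0.17. Over all genes tested 50.4% were lower and the median was -0.0028. On the authors' FPKM scale, which has no TMM scaling, 27 of the 45 were lower in limma, with a median of -0.077 beside 0.055 for all genes. All 8 membrane proteins, all 4 genes of protein turnover, 4 of 5 lipid genes and 9 of 12 glycan and sphingolipid hydrolases had lower values, with group medians of -0.33, -0.31, -0.37 and -0.16. For 5 of 8 pump genes and 4 of 6 glycosaminoglycan hydrolases the value was lower, with medians of -0.064 and -0.057. In limma on log2(FPKM + 1), where the test and the pseudocount differ as well as the scaling, the lower values were 7 of 8, 4 of 4, 4 of 5 and 7 of 12 for the former groups. For the pump and the glycosaminoglycan hydrolases they were 2 of 8 and 2 of 6 there, so that most genes of these groups had higher values. The most negative values were those of Lipa (-0.57 ± 0.387 SE, edgeR adjusted p = 0.500), Man2b1 (-0.56 ± 0.331, adjusted p = 0.492) and Scarb2 (-0.54 ± 0.272, adjusted p = 0.492). Among the abundant genes Psap differed by -0.26 ± 0.290 (adjusted p = 0.633), Lgmn by -0.44 ± 0.350 (adjusted p = 0.533) and Lamp1 by -0.34 ± 0.243 (adjusted p = 0.510). Smpd1 had 0.63 ± 0.463 (adjusted p = 0.514). Each of these differences was within about 2 of its standard errors.

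The lower values went with library content. All 16 Kupffer cell markers had lower values in KO (median log2 difference -0.59), while the melanoma markers were higher in value by a median of 1.20. In bulk RNA, fewer Kupffer cells in a library and less lysosomal RNA per Kupffer cell cannot be told apart. With the log2 melanoma sum added as a covariate, 15 of the 45 genes were below 0 and the median became 0.034. The difference changed sign for Psap (0.14), Lgmn (0.036), Lamp1 (0.026), Lipa (0.13) and Smpd1 (-0.15), and 0 of the 45 genes passed. Without WT 1, WT 2 and KO 3, the libraries at the ends of melanoma content, 6 of 45 were lower and the median was 0.11. This left WT 3 and WT 4, with melanoma sums of 5485 and 4707 CPM. The KO libraries left were KO 1, KO 2 and KO 4, with 2437, 3486 and 6449 CPM. KO 1 and KO 2 were thus below both of those WT libraries. Without KO 3 alone 36 of 45 were lower and the median was -0.069. The summed hepatocyte markers were 444 to 2004 CPM in WT and 185 to 784 in KO, those of sinusoidal endothelium 395 to 729 and 230 to 516, and those of stellate cells and fibroblasts 81.9 to 209 and 42.9 to 63.5. Monocyte and neutrophil markers summed to 374 to 447 CPM in WT and 305 to 502 in KO, T cell markers to 59.2 to 180 and 39.4 to 153, and B and plasma cell markers to 95.2 to 230 and 101 to 160. Every marker of these 6 lists (of 10, 8, 8, 8, 7 and 6 genes) had counts in all libraries, and their part in the lysosomal values was not tested.

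**Figure D3:**
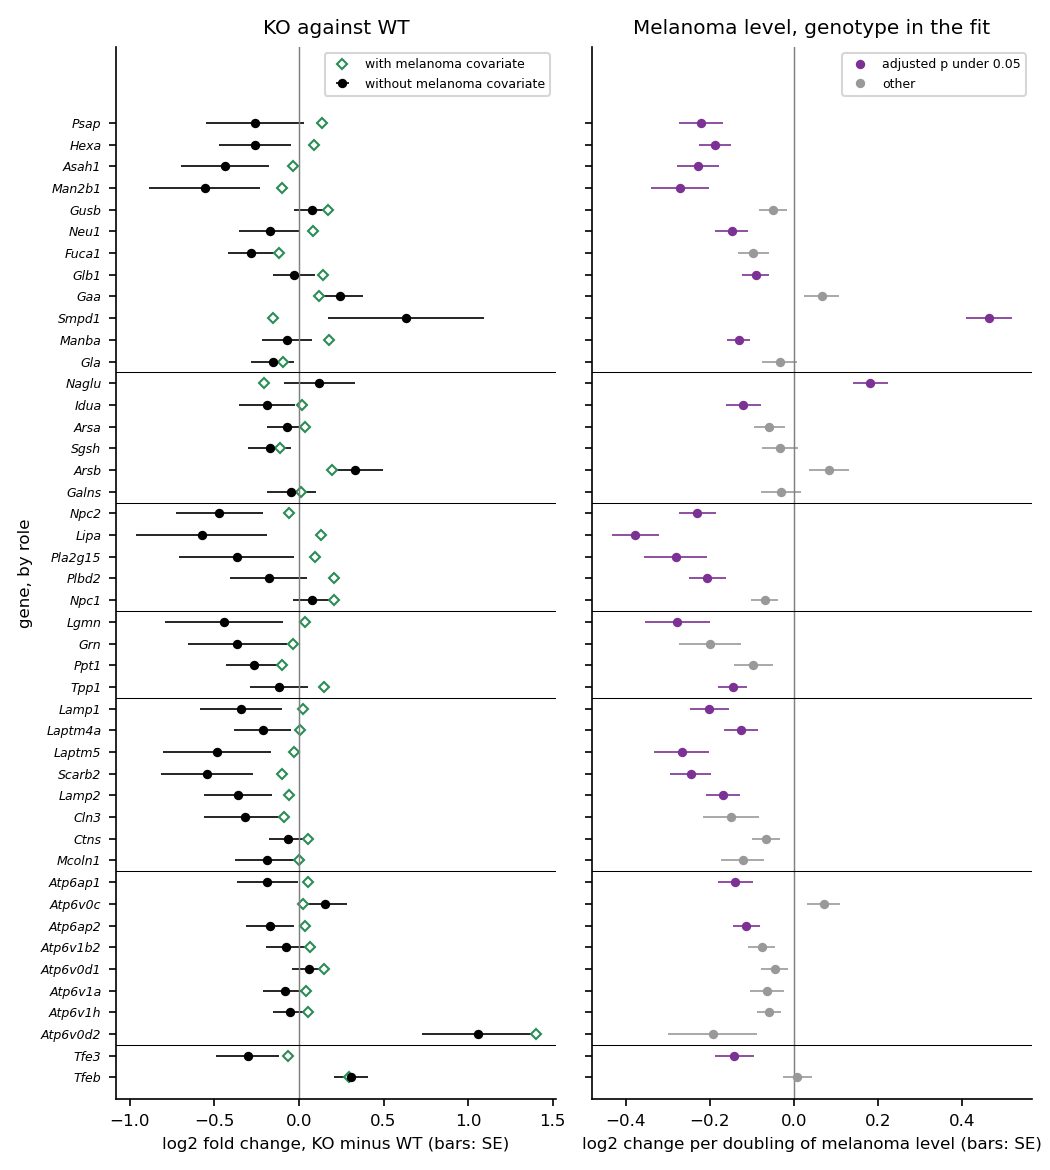
On the left, the log2 difference KO minus WT of each gene with its SE (black) and the value with the melanoma covariate (green diamonds), and on the right the log2 change per doubling of the melanoma marker sum with its SE, purple where the adjusted p was under 0.05. Most black points lay below 0 and the green diamonds lay around 0, except for Atp6v0d2 and Tfeb, and purple points were on the negative side except for Smpd1 and Naglu.

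Atp6v0d2 and Tfeb, the 2 genes with an unadjusted p under 0.05 in edgeR, kept the same direction with and without the melanoma term. Other genes kept theirs as well, since the sign turned for 24 of the 45. Atp6v0d2 was 0.542 ± 0.184 TMM-scaled FPKM in WT and 1.13 ± 0.308 in KO (mean ± SD, n = 4 each), a log2 difference of 1.06 ± 0.327 SE (edgeR unadjusted p = 0.0108, adjusted p = 0.492). The value was 1.40 with the melanoma covariate (adjusted p = 0.370) and 0.91 to 1.31 when each library was left out in turn. It rests on 17 to 77 counts per library. Tfeb was 5.35 ± 0.413 in WT and 6.62 ± 0.444 in KO (mean ± SD, n = 4 each), a log2 difference of 0.31 ± 0.101 (edgeR unadjusted p = 0.0148, adjusted p = 0.492). It was 0.30 with the covariate and 0.26 to 0.34 with each library left out. Tfeb was the 1 gene of 45 whose KO libraries were all above the WT libraries, where 2.71% of all genes were, and 0 of 45 had all KO libraries below, where 2.85% of all genes did. In DESeq2 the adjusted p was 0.181 for Atp6v0d2 and 0.205 for Tfeb.

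The replicate numbers 1 to 4 are shared by the genotypes, and with the number as a block in edgeR 7 of the 45 genes passed. Smpd1 was called higher in KO at a log2 difference of 0.64 (adjusted p = 0.0287), and 8.98% of all genes were called higher. Called lower were Scarb2 (-0.54, adjusted p = 0.0306), Npc2 (-0.47, adjusted p = 0.0425), Laptm5 (-0.52, adjusted p = 0.0442), Man2b1 (-0.60, adjusted p = 0.0445), Asah1 (-0.45, adjusted p = 0.0445) and Lipa (-0.54, adjusted p = 0.0486), and 5.01% of all genes were called lower. None of the 7 passed when pair 1, pair 2 or pair 3 was left out, with adjusted p from 0.0652 to 0.198, and all 7 passed without pair 4. None passed with the block and the melanoma covariate together. Atp6v0d2 and Tfeb had blocked adjusted p of 0.0566 and 0.0609. The pairing is read from the data, since the labels do not say what a shared number means.

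Within genotype, the lysosomal genes differed between libraries with their melanoma content. A slope was fitted for every gene on the log2 summed CPM of the 10 melanoma markers with genotype in the model, so that it gives the log2 change per doubling of the melanoma sum. Of the 45 genes, 22 fell with it in edgeR (adjusted p under 0.05), where 14.4% of all genes fell, and 2 rose, where 21.0% of all genes rose. The median slope was -0.12, beside 0.0014 for all genes. Gene level and melanoma sum are shares of the same library and so are not independent, and the part of this dependence in the slopes was not tested. The Kupffer cell markers had slopes of -0.47 to -0.096 (median -0.27), and 10 of 16 fell.

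Smpd1 and Naglu were the genes that rose. The slope of Smpd1 was 0.46 ± 0.0544 SE (edgeR adjusted p = 0.000219), the largest in size of the 45, and that of Naglu was 0.18 ± 0.0415 (adjusted p = 0.00955). Both passed in all 8 fits that left out 1 library, but with the replicate block the slope was 0.18 ± 0.124 for Smpd1 and -0.00055 ± 0.116 for Naglu, and neither passed (adjusted p = 0.9998). The slopes of the melanoma markers themselves were 0.89 to 1.08. Arsb had the next most positive slope, 0.083 ± 0.0475, which did not pass (edgeR adjusted p = 0.199).

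Lipa fell most, with a slope of -0.38 ± 0.0557 (edgeR adjusted p = 0.000958), followed by Pla2g15 (-0.28 ± 0.0758, adjusted p = 0.0186) and Lgmn (-0.28 ± 0.0765, adjusted p = 0.0207). With the replicate block these 3 slopes were -0.21 ± 0.141, 0.033 ± 0.146 and -0.030 ± 0.176, and none passed. The lipid group had 4 of 5 genes that fell, among them Npc2 (-0.23, adjusted p = 0.00391) and Plbd2 (-0.21, adjusted p = 0.00691), while Npc1 had -0.070 (adjusted p = 0.119). Of the 12 glycan and sphingolipid genes 7 fell, among them Psap (-0.22, adjusted p = 0.0113), Man2b1 (-0.27), Asah1 (-0.23), Hexa (-0.19), Neu1 (-0.15) and Manba (-0.13). Of the 8 membrane proteins 5 fell, namely Laptm5 (-0.27), Scarb2 (-0.24), Lamp1 (-0.20), Lamp2 (-0.17) and Laptm4a (-0.13). In the protein turnover group Tpp1 fell with Lgmn (-0.15), and Grn had -0.20 (adjusted p = 0.0582). Of the 8 pump genes only Atp6ap1 (-0.14) and Atp6ap2 (-0.11) fell, and the 6 subunits that did not pass had slopes of -0.19 to 0.071. Of the glycosaminoglycan group Idua fell (-0.12, adjusted p = 0.0482), and of the factors Tfe3 fell (-0.14, adjusted p = 0.0403) while Tfeb had 0.0075 (adjusted p = 0.886).

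The number that fell depended on single libraries and on the block. Without WT 3, 6 genes fell, namely Hexa, Manba, Asah1, Lipa, Npc2 and Scarb2, and without any other single library 15 to 26 fell. Over all genes 1079 to 2512 fell in these 8 fits. Of the 24 genes that passed, 8 kept their call in all 8 of these fits, 16 lost it without WT 3, and 8 lost it in more than 1 of them, including Lgmn, Pla2g15, Laptm4a, Atp6ap1, Atp6ap2 and Tfe3. On the authors' FPKM scale limma on log2(FPKM + 1) called 13 genes lower and 3 higher. The count of all genes called lower there is given in the last section. That of all genes called higher is not, so the 3 cannot be read against a background. With the replicate block in edgeR 0 of the 45 passed, where 1.05% of all genes did, and the 45 slopes ran from -0.23 to 0.18 with a median of -0.043. The sign turned for 11 of them. WT 1 and WT 2 lay far below the others in melanoma sum. Without both, 24 genes fell and 3 rose (Smpd1, Naglu and Gaa), where 20.2% and 21.0% of all genes did. Slopes became steeper for Lipa (-0.59), Psap (-0.38), Pla2g15 (-0.68) and Smpd1 (0.73), but not for every gene, as for Glb1 (-0.051). The WT libraries left, WT 3 and WT 4, were close in melanoma sum (5485 and 4707 CPM). With genotype in the model, these slopes therefore rest mostly on the KO libraries, at 2437 (KO 1) to 12369 CPM (KO 3).

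**Figure D4:**
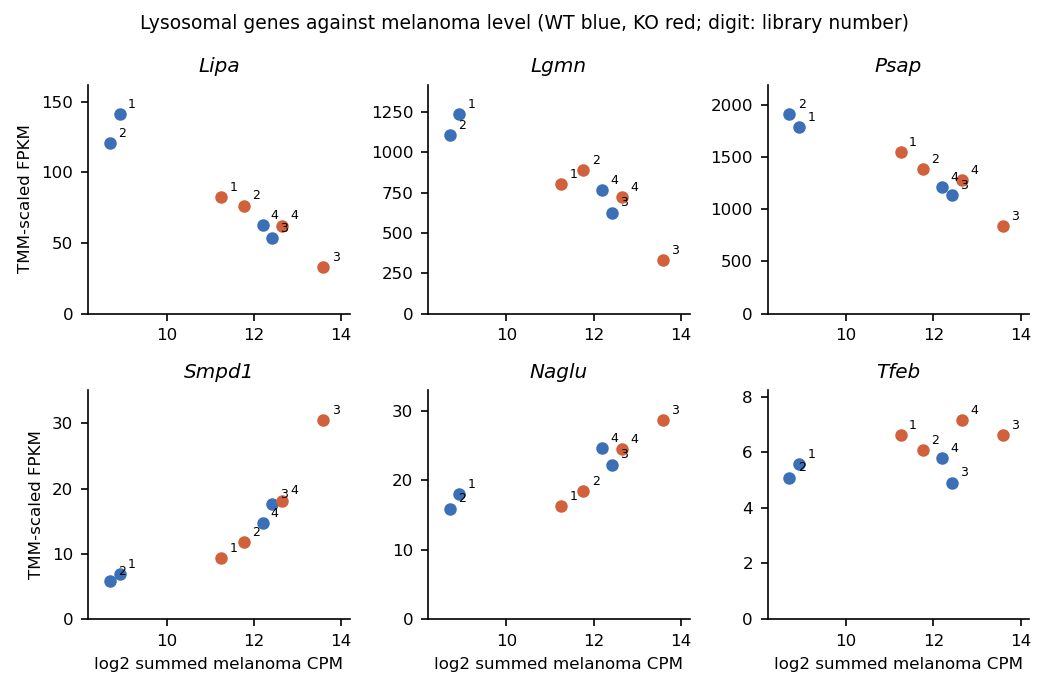
The level of 6 lysosomal genes (TMM-scaled FPKM) in each library is plotted against the log2 summed CPM of the melanoma markers, with WT in blue, KO in red and the replicate number beside each point. Lipa, Lgmn and Psap were lowest in KO 3 and highest in WT 1 and WT 2, Smpd1 and Naglu were highest in KO 3, and Tfeb was higher in the 4 KO libraries than in the 4 WT libraries at any melanoma level.

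Ratios of related genes within a library do not depend on how libraries are scaled, and 6 were compared between genotypes by an exact 2-sided permutation test, whose smallest p is 0.0286 with 4 against 4. Tfeb was 35.8, 34.0, 43.6 and 45.2% of the Tfe3 level from WT 1 to WT 4 and 48.8, 53.4, 88.0 and 60.4% from KO 1 to KO 4. This was the only ratio whose genotypes did not overlap, at 39.6 ± 5.57% against 62.7 ± 17.6% (mean ± SD, n = 4, exact p = 0.0286, 0.114 after adjustment over the 6 ratios). The highest value came from KO 3, in which Tfe3 was lowest.

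The ratio of Atp6v0d2 to Atp6v0d1 was 0.909 ± 0.271% in WT and 1.80 ± 0.437% in KO, and that of Npc1 to Npc2 7.47 ± 1.29% and 11.1 ± 3.09% (exact permutation p = 0.0571, adjusted 0.114, for each). With 1 library left out, the Npc1 to Npc2 ratio gave exact permutation p from 0.0286 to 0.114. The lowest came without KO 1, whose 8.52% lay within the WT range of 5.85 to 8.83%. The ratio was highest in KO 3, at 15.6%. Laptm5 was 88.1 ± 12.9% of Laptm4a in WT and 72.4 ± 16.02% in KO, which overlapped (p = 0.200 by exact permutation, adjusted 0.300). Lamp2 was 12.8 ± 0.682% of Lamp1 in WT and 12.6 ± 0.660% in KO (p = 0.629 by exact permutation). Atp6ap2 was 80.2 ± 5.39% of Atp6ap1 in WT and 81.7 ± 8.02% in KO (p = 0.771 by exact permutation). The last 2 ratios had a log2 difference between genotypes of -0.029 ± 0.0542 and 0.024 ± 0.0844 (SE).

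**Figure D5:**
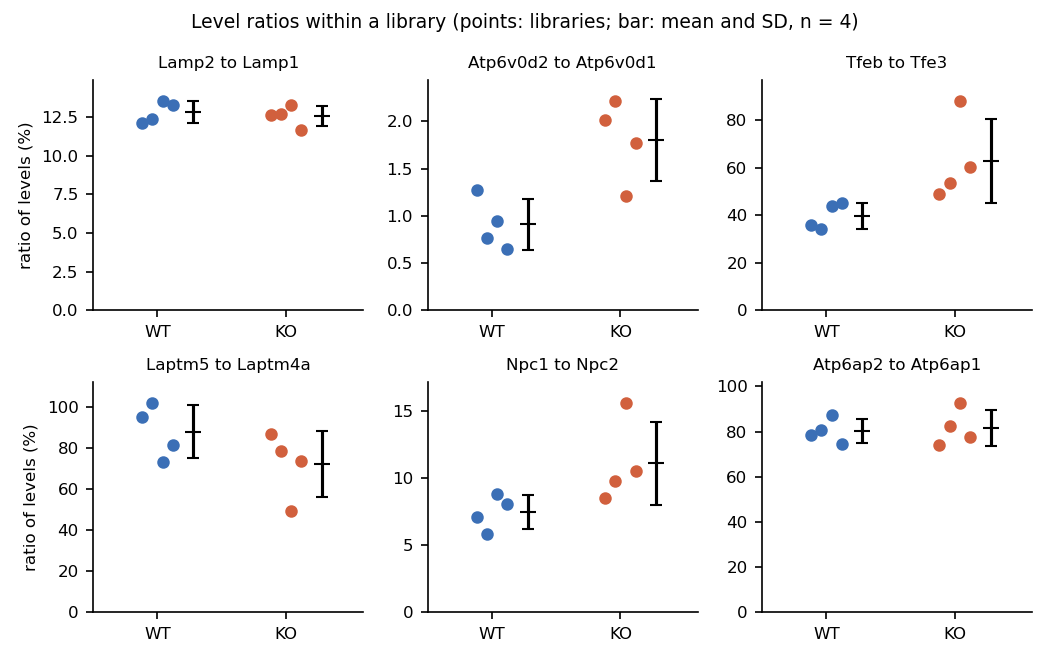
Each point is the level of the first gene as a percentage of the second in 1 library, with the mean and SD of 4 libraries beside it. The points of WT (blue) and KO (red) overlapped in every panel except that of Tfeb and Tfe3, where KO values of 48.8 to 88.0% lay above WT values of 34.0 to 45.2%.

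The 12 genes with CACGTG had a median log2 difference between genotypes of -0.12 and a median melanoma slope of -0.061, and 4 of them passed for the slope (Lamp1, Lgmn, Glb1 and Naglu). The 26 without it had medians of -0.24 and -0.14, and 18 passed. Of those that passed, Naglu and Smpd1 rose and the others fell, where 21.0% of all genes rose and 14.4% fell. These are descriptions of small groups without a test.

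Other genes of the lysosomal pathway, 95 in number and from 4 lists, were set beside these, and 92 passed the filter on low counts. Not all of them encode proteins of the lysosome, since the lists also hold sorting receptors and regulators of TFEB and mTORC1. None of the 92 was called between genotypes, and their median log2 difference was -0.072. The lists differed in this. Of the other hydrolases and cofactors 23 of 30 had a lower value in KO, with a median of -0.18, close to the -0.17 of the 45 genes. Of the other membrane proteins and channels 17 of 27 were lower (median -0.11). For the other pump subunits it was 5 of 12 (0.11), and for TFEB regulation and mTORC1 docking 10 of 23 (0.035). An unadjusted p under 0.05 in edgeR was found for 3 higher and 4 lower, where 8.78% of all genes had such a p. Igf2r, the mannose-6-phosphate receptor that delivers hydrolases to the lysosome, had 6.58, 7.20, 7.60 and 7.79 TMM-scaled FPKM from WT 1 to WT 4 and 8.56, 9.45, 12.8 and 10.1 from KO 1 to KO 4. All KO libraries were above all WT libraries, at a log2 difference of 0.49 ± 0.135 (edgeR adjusted p = 0.492). With the block the adjusted p was 0.0286, and 0.0666, 0.0920 and 0.0827 when pair 1, 2 or 3 was left out. With the replicate block 8 of the 92 were called higher and 5 lower, shares close to the 8.98% and 5.01% of all genes. For the melanoma slope without the block, 12 of the 92 rose and 28 fell, where 21.0% and 14.4% of all genes did. The share that rose is below that background. With the block 3 rose and 0 fell, where 1.05% of all genes passed. By list and without the block, 2 rose and 3 fell of 12 other pump subunits, 3 and 15 of 30 other hydrolases and cofactors, 4 and 9 of 27 other membrane proteins and channels, and 3 and 1 of 23 genes of TFEB regulation and mTORC1 docking. Among those that rose were the pump subunit Atp6v0e2 (0.92 ± 0.0402), the sorting receptor Sort1 (0.78 ± 0.0335), the tetraspanin Cd63 (0.75 ± 0.0312), the Rag GTPase gene Rragd (0.78 ± 0.0525) and Mitf (0.45 ± 0.0509), the melanocyte relative of Tfeb (edgeR adjusted p of at most 0.000167 for each). The macrophage membrane proteins Cd68 (-0.26) and Slc11a1 (-0.29) fell, as did Plbd1 (-0.28).

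The most abundant genes of these lists, and those with the smallest p between genotypes, overlapped between genotypes except for Igf2r. The pump subunits Atp6v1g1, Atp6v0b and Atp6v1c1 ranged over 174 to 190, 106 to 125 and 17.5 to 19.4 TMM-scaled FPKM in WT and over 171 to 240, 80.7 to 111 and 19.4 to 29.8 in KO. The acid phosphatase Acp5 ranged over 147 to 222 in WT and 84.1 to 221 in KO, and Plbd1 over 158 to 286 and 89.9 to 227. Cd68 ranged over 340 to 658 in WT and 202 to 530 in KO, and the metal transporter Slc11a1 over 104 to 199 and 54.5 to 160. For these 4 the lowest library was KO 3. The peptide transporter Abcb9 was 0.788 to 1.24 in WT and 1.23 or more in KO, and had a log2 difference of 0.50 ± 0.196 (edgeR adjusted p = 0.492). Of the regulators of TFEB and mTORC1, Ywhaz, of the family whose proteins hold phosphorylated TFEB in the cytoplasm, ranged over 80.0 to 90.6 in WT and 81.2 to 116 in KO, the Ragulator subunit Lamtor5 over 57.8 to 67.3 and 51.5 to 62.6, and the folliculin partner Fnip2 over 5.78 to 7.44 and 7.22 to 8.88.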

How the data were processed

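The samples were 8 RNA-seq libraries from sorted Kupffer cells of WT (4) and KO (4) mice. Raw counts for each gene and library make up the deposited table, per the file headers. It also holds FPKM values computed by the authors. Those FPKM values equal the count divided by exonic size and column total, within 0.005. The deposited table holds as other numbers the exonic size, start and end of each gene. Of the 45 genes only 1 had a deposited start within 1000 bases of its RefSeq GRCm38 start, so those positions are not printed. HTSeq 0.6.1 and mm10 are named in the submitters' processing notes; which aligner, annotation release and strand setting were used is not given in the sources used here, so reads of overlapping genes on opposite strands and of near-identical copies may be mixed. Column letters C and K were read as WT and KO, with the digit taken as the replicate number.

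Counts were filtered with filterByExpr, scaled by TMM and tested with the 2-sided quasi-likelihood F test of edgeR 4.0.16 under R 4.3.3, with Benjamini-Hochberg adjustment across 15870 genes and a threshold of 0.05. Fits over all genes were tested on simulated data. The simulated genotype comparison held no melanoma gradient, so it does not cover that source of spread in the main comparison. The biological coefficient of variation was 33.3%. Printed levels are TMM-scaled CPM per kilobase of exonic size. The melanoma slope used the log2 summed TMM-scaled CPM of 10 markers with genotype in the model, and ratios were compared by exact permutation over 70 splits. Taken over all tested genes, counting error is small beside the spread between libraries: within a genotype, counts of any 2 libraries differed with a chi-square per degree of freedom of at least 10.7. This value is dominated by genes with many counts and need not hold for a gene with few, such as Atp6v0d2 (17 to 77 counts per library).

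Same-numbered libraries of the genotypes deviated together from their genotype means, with correlations of 0.561 (number 1), 0.544 (2), 0.660 (3) and 0.290 (4). As each exceeded 0.1, the number was read as a possible pairing, with the block kept as an alternative. This rests on the values and not on the labels. WT 2 correlated best with KO 1 and WT 4 with KO 3. KO 1 in turn correlated best with WT 2 and KO 4 with WT 3. In both genotypes libraries 1 and 2 had lower melanoma sums than libraries 3 and 4. The part of that difference in the correlations was not tested. The comparison without the block is the main one, and blocked values are given for the results they change.

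The genes and lists were chosen with earlier results of these data known. Values per library are given, in each role, for the gene of highest level, largest difference and smallest p, for the genes of the 6 ratios and for the 3 slopes farthest from 0 in each direction. In each other list, the genes of highest level and of smallest p are given by their range. Some genes of the other lists were added after their values were seen. Alternatives were RLE size factors, no filter, a mean CPM of at least 5, DESeq2 1.42.0, limma 3.58.1 on log2(FPKM + 1) and log2(FPKM + 0.1), the replicate block, the melanoma covariate, other melanoma terms, 1 count added to both genes of a ratio, and leaving out each library. Chosen after seeing the data were the block without 1 pair, the genotype comparison without WT 1, WT 2 and KO 3, and the slope without WT 1 and WT 2.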

Additional observations from a re-analysis of the deposited data

Results flagged for a closer look

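Among 102 groups of 4 libraries (the 45 genes and 6 ratios in each genotype), 3 had a library far from the other 3, where chance gives about 1 in 20 groups. Sgsh was 9.01 TMM-scaled FPKM in WT 1 and 6.86 to 7.15 in the other WT libraries. Grn was 201 in KO 3 and 426 to 460 in the other KO libraries. Atp6v0d1 was 50.6 in WT 3 and 61.6 to 63.8 in the other WT libraries.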

How the results depend on the processing

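The count of 0 lysosomal genes called between genotypes held under every alternative except the replicate block (1 higher, 6 lower; all genes 1425 and 795) and the block without pair 4 (1 and 6; all genes 1475 and 754). Over all genes, calls numbered 30 higher and 36 lower in DESeq2 and 1 higher without a filter. With the block they were 43 and 164 without pair 1, 1 and 1 without pair 2, 0 and 1 without pair 3, and 0 and 2 with the melanoma covariate. Leaving out 1 library gave 0 to 1 higher.

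With the melanoma covariate 15 genes had a lower value (median 0.034), and the sign turned for 24 of 45, among them, of the genes given per library, Smpd1 (-0.15), Psap (0.14), Naglu (-0.20), Lipa (0.13), Pla2g15 (0.097), Lgmn (0.036), Lamp1 (0.026), Laptm4a (0.0052), Atp6ap1 (0.055) and Atp6ap2 (0.034). Without WT 1, WT 2 and KO 3, 6 had a lower value (median 0.11), and it turned for 33, among them Smpd1 (-0.30), Psap (0.26), Naglu (-0.25), Lipa (0.34), Npc2 (0.065), Pla2g15 (0.26), Lgmn (0.21), Lamp1 (0.14), Lamp2 (0.024), Scarb2 (0.042), Laptm5 (0.12), Laptm4a (0.078), Atp6ap1 (0.13), Atp6ap2 (0.092) and Tfe3 (0.027). In that fit KO 1 and KO 2 had lower melanoma sums than WT 3 and WT 4. With 1 library left out, Naglu ranged from -0.031 to 0.23 and Atp6v0d1 from -0.012 to 0.097.

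For the melanoma slope, limma called 1020 genes lower, 13 of them lysosomal, on log2(FPKM + 1), and 743 and 10 on log2(FPKM + 0.1). The replicate block called 162 higher and 4 lower, with 0 lysosomal genes in either direction, and the slope turned for 11, among them Fuca1 (0.057), Naglu (-0.00055), Pla2g15 (0.033), Atp6v0d2 (0.051) and Tfeb (-0.043). Without the genotype term Atp6v0d2 had 0.056. Leaving out 1 library gave 1079 to 2512 genes lower, 6 to 26 of them lysosomal, and -0.017 to 0.033 for Tfeb. The cause of these shifts was not tested.

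Log2 differences of ratios with 1 library left out were -0.055 to 0.0061 for Lamp2 to Lamp1, 0.46 to 0.74 for Tfeb to Tfe3, 0.38 to 0.67 for Npc1 to Npc2 and -0.038 to 0.070 for Atp6ap2 to Atp6ap1. In the paired test by sign flips Tfeb to Tfe3 stayed at 0.63 with an exact p of 0.125, the smallest that 4 pairs allow. The block changed no other call among the 45 genes and 6 ratios. Counts limit Atp6v0d2 most.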
